A study of Mus musculus with 12 samples.

Results

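Female and male frontal cortex were compared in amyloid mice that lack Hras. The 6 libraries, of 12 in the series, came from 3 female and 3 male APP/PS1/Hras-/- mice aged 9 months, each library from its own mouse. All of these mice carry the APP/PS1 transgenes, so no mouse without amyloid transgenes served as a control, and Hras, a small GTPase of the Ras family, was knocked out in both sexes. The other 6 libraries came from 3 female and 3 male APP/PS1 mice of the same age with Hras intact, and they served here as a reference for the same sex contrast. Neither the promoters of the transgenes nor the design of the knockout allele is known from the labels. Replicate numbers only name the mice and pair none of them. Of 54532 genes in the count table, 14837 were tested, namely autosomal genes with a raw CPM (counts scaled to the library total) of at least 1 in at least 3 of the 6 knockout libraries.

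The libraries matched their labels. Hras stood at 21.3 ± 1.61 CPM in the knockout and 82.8 ± 9.17 CPM in APP/PS1 mice (SD, n = 6 each, exact permutation p = 0.0022, two-sided), and at 21 ± 1.98 in knockout females against 21.6 ± 1.51 CPM in knockout males (SD, n = 3 each). Xist, the X-inactivation transcript, lay at 541 to 939 raw CPM in the knockout females and at no more than 0.465 in the knockout males, with female 3 at the low end of the females. Total counts of the 6 libraries ran from 13984692 to 18567648. The RNA integrity number (RIN) was 8.4 ± 0.1 in the females and 8.67 ± 0.058 in the males, with every female below every male (SD, n = 3 each, exact permutation p = 0.1, the smallest p that 3 against 3 can give). Sex and RIN can therefore hardly be told apart in these 6 libraries. Excitatory cortical neuron markers summed to 10235 to 10287 CPM in the females and 9540 to 11035 CPM in the males. No other tissue was there for comparison, so cortical identity rests on the labels.

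Amyloid plaques draw microglia, the resident macrophages of the brain, which turn down homeostatic genes and turn on a disease-associated program that depends on the receptor Trem2 and its adaptor Tyrobp. Astrocytes around plaques become reactive and raise Gfap, and oligodendrocytes near plaques take on complement and MHC genes. Interferon response genes mark a further state of microglia and astrocytes. To describe these responses, 16 glial gene lists with 450 genes in all were used, of which 405 were tested, 33 were too low and 12 lay on sex chromosomes.

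No gene separated the sexes at an adjusted p under 0.05. The test was edgeR's quasi-likelihood test with Benjamini-Hochberg adjustment over all 14837 genes, and it called 0 genes (0%), with the lowest adjusted p at 0.9999. DESeq2 and limma-voom also called 0. At an unadjusted p under 0.05 there were 229 genes (1.54%), of which 95 were higher (0.64%) and 134 lower (0.903%) in females. That share lay below 0.05, the share expected at this threshold if no gene differed. Of the 405 glial genes, 0 were called, 15 were higher and 2 lower in females at an unadjusted p under 0.05. These 17 (4.2%, also below 0.05) became 23 (5.68%) without male 1, 63 (15.6%) without male 2 and 13 (3.21%) without male 3. They became 9 (2.22%) without female 1, 21 (5.19%) without female 2 and 43 (10.6%) without female 3. With RIN as a covariate they were 67 (16.5%). The 229 over all genes became 479 (3.23%) without male 1, 300 (2.02%) without male 2 and 230 (1.55%) without male 3. They became 182 (1.23%) without female 1, 354 (2.39%) without female 2, 302 (2.04%) without female 3 and 1151 (7.76%) with RIN. A positive female-minus-male log2 difference was found in 282 of the 405, against 47.1% of all tested genes, and the median difference was 0.09 in the glial lists and −0.01 over all genes. In 1 set of counts simulated for these 6 libraries, 50 genes were changed at each size. Of these, 24% were called at a log2 difference of 0.58, 76% at 1 and 94% at 2. Differences of moderate size could thus go uncalled at 3 against 3. The counts were drawn gene by gene, with no spread shared between genes. The changed genes of all sizes were also in the same set, which makes the adjusted threshold easier to pass. For both reasons these shares may be too high for the real libraries. All gene differences below are log2 differences of females minus males, and none passed the adjusted threshold.

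The spread within each sex was wide and shared by many glial genes. The level of a list in a library was taken as the mean over its tested members of log2 CPM, centred on each gene's mean over the 12 libraries. For the disease-associated microglia genes it was −0.31, 0.13 and −0.63 in males 1 to 3 and 0.24, 0.26 and −0.20 in females 1 to 3. Male 2 thus sat above female 3, male 3 was lowest of all, and the sexes overlapped. The same order at the low end recurred for homeostatic microglia genes, at −0.06, 0.19 and −0.33 in the males and 0.05, 0.14 and −0.01 in the females, where male 2 was the highest of the 6. In bulk tissue, more microglia and more RNA per microglial cell cannot be told apart.

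**Figure D1:**
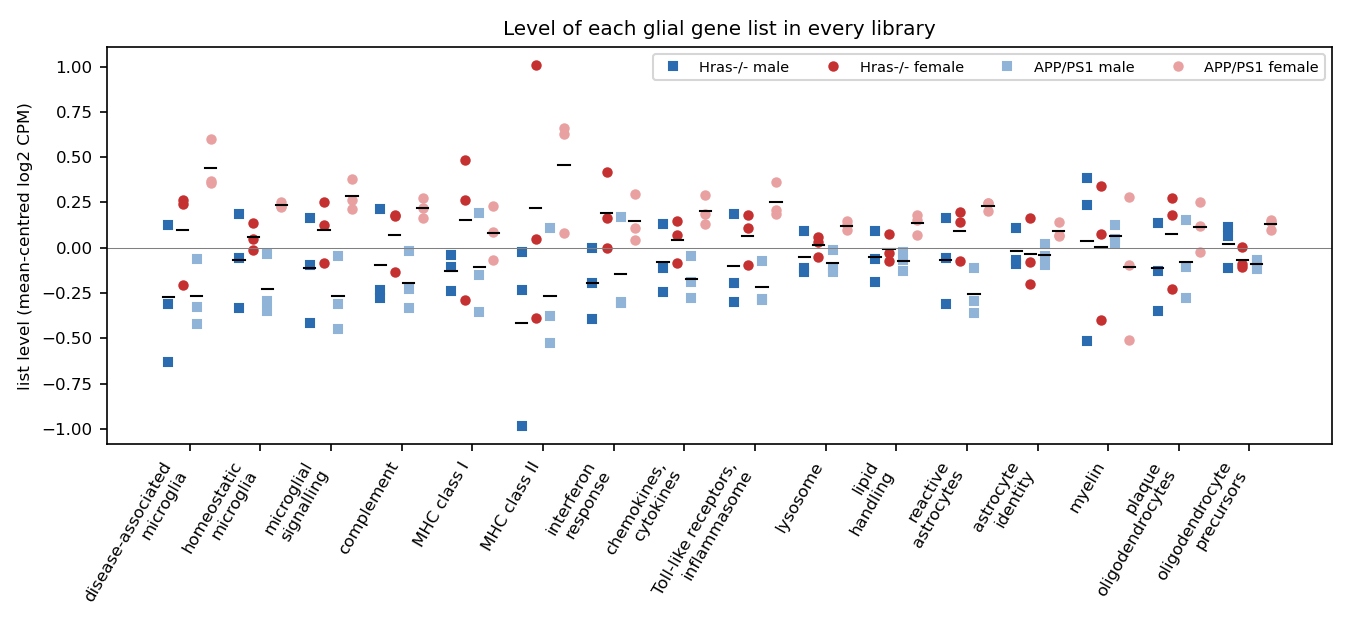
Level of each glial gene list in every library (vertical axis, mean-centred log2 CPM), with males as squares, females as circles, knockout libraries in dark and APP/PS1 libraries in light colours; the black dash is the mean of 3 libraries. Among the knockout libraries the disease-associated microglia level spans −0.63 to 0.13 in males and −0.20 to 0.26 in females, while the interferon level spans −0.39 to 0.00 in males and 0.00 to 0.42 in females.

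Among receptors and signalling adaptors of disease-associated microglia, values lay higher in females by about the size of the spread. Itgax, an integrin subunit that marks plaque-associated microglia (ENSMUSG00000030789, GRCm38 chromosome 7, 128129547 to 128150657, plus strand), was at 10.7, 14 and 6.08 CPM in males and 24.8, 24.1 and 14.1 CPM in females. Every female lay above every male, though female 3 exceeded male 2 by little. The difference was 1.02 (SE 0.34, unadjusted p = 0.0208, adjusted p = 0.9999). Trem2, the lipid-sensing receptor, was at 32.4, 51.1 and 25.6 CPM in males and 64.8, 54.1 and 39.9 CPM in females, a difference of 0.53 (SE 0.292). Its adaptor Tyrobp differed by 0.43 (SE 0.324), and Clec7a, a receptor for fungal glucans that marks activated microglia, by 0.81 (SE 0.418). In all 3 genes male 2 overlapped the females.

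The secreted and endosomal members followed the same libraries. Cst7, a cysteine protease inhibitor, was at 11.8, 19.5 and 5.2 CPM in males and 32.2, 26.6 and 13.2 CPM in females, with a difference of 0.97 (SE 0.555, 95% interval −0.43 to 2.36). Gpnmb, a transmembrane glycoprotein of lipid-laden macrophages named after its values were seen, had the largest difference of the list at 1.38, from 1.34, 5.86 and 0.752 CPM in males and 6.91, 12.8 and 1.6 CPM in females. Here too male 2 and female 3 crossed. Mamdc2, an extracellular matrix protein, separated the sexes at 1.69, 2.74 and 1.63 CPM in males and 4.39, 3.06 and 3.03 CPM in females (0.78, SE 0.294, unadjusted p = 0.0262). The chemokine Ccl3 (0.88, SE 0.521), the lysosomal membrane protein Cd68 (0.49, SE 0.236), the matrix phosphoprotein Spp1 (0.41, SE 0.325), the protease Ctsd (0.38, SE 0.213) and the lipase Lpl (0.31, SE 0.227) overlapped between the sexes. Apoe, the main lipid carrier of the brain, was level at 1115, 1264 and 926 CPM in males and 1173, 1087 and 1112 CPM in females (0.03, SE 0.125, 95% interval −0.26 to 0.31). Ccl4 was too low to test.

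Over the whole disease-associated list, 37 of 42 tested members lay higher in females, with a median of 0.25 and a range of −0.20 to 1.38. At an unadjusted p under 0.05 there were 2 (0.64% of all genes lay higher at that level), Itgax and Mamdc2. They were also the only members of this list for which every female exceeded every male, as 2.76% of all tested genes did. The median was 0.38 without male 2 and 0.17 without female 2, and 33 to 40 members stayed positive with any 1 of the 6 libraries left out.

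**Figure D2:**
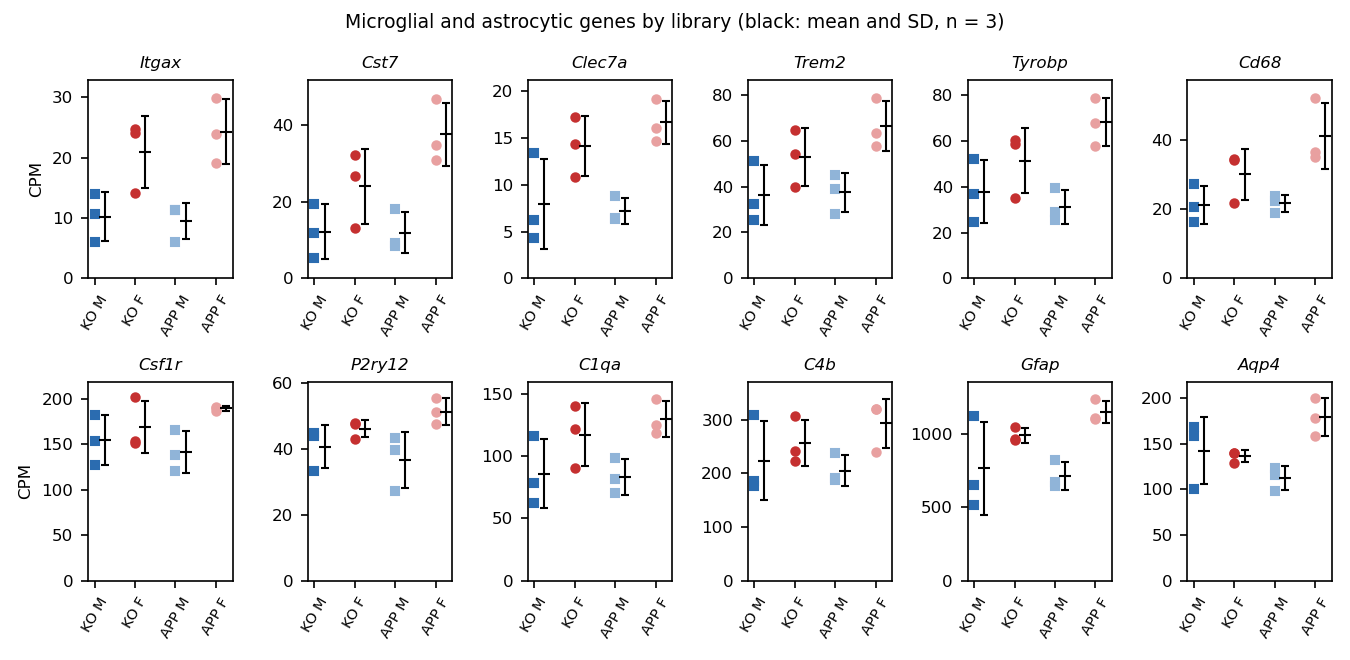
CPM of 12 microglial, complement and astrocytic genes in every library; KO M and KO F are APP/PS1/Hras-/- males and females, APP M and APP F are APP/PS1 males and females, and black marks give the mean and SD of 3 libraries. In the knockout, Itgax runs from 6.08 to 14 CPM in males and from 14.1 to 24.8 CPM in females, while Gfap and Aqp4 overlap between the sexes.

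The signalling genes around Trem2, Fc receptors and integrins were all small in difference and of 1 sign. All 28 tested members lay higher in females, with a median of 0.19 and a maximum of 0.43, and none reached an unadjusted p of 0.05. The inhibitory Fc receptor Fcgr2b was at 10.7, 13 and 8.65 CPM in males and 17.7, 13.9 and 11.8 CPM in females (0.41, SE 0.196). The lipid phosphatase Inpp5d, which restrains Trem2 signalling, was at 21.5, 27.8 and 20.6 CPM in males and 29.1, 27.6 and 26.8 CPM in females (0.25, SE 0.13). In both genes male 2 lay within the females' range, and the list median was 0.35 without male 2 and 0.07 without male 3. The single sign did not hold with every library left out, as 16 of 28 lay higher without male 3 and 22 without female 1.

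Homeostatic microglia genes, which plaque-contacting microglia turn down, lay on the same side as the disease-associated ones rather than opposite to them. Of 25 tested members, 20 were higher in females, with a median of 0.09, and 0 reached an unadjusted p of 0.05. Tmem119, a microglial membrane protein, was at 31.3, 29.2 and 23.2 CPM in males and 33.1, 38.7 and 29.2 CPM in females (0.26, SE 0.142). The purinergic receptor P2ry12 differed by 0.18 (SE 0.125), the growth factor receptor Csf1r by 0.12 (SE 0.158) and the fractalkine receptor Cx3cr1 by 0.09 (SE 0.126). Adgrg1, an adhesion receptor that astrocytes and precursors also express, had the second smallest p of the list and lay lower in females (−0.20, SE 0.124). The list median was 0.01 without male 3 and 0.23 without male 2, and without male 3 Cx3cr1 turned to −0.03. The side on which the list lay was weakly held, with 14 of 25 higher without male 3 and 15 without female 1.

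Lysosomal and lipid-handling genes were close to level. In the lysosomal list 28 of 45 members lay higher in females, with a median of 0.02, and in the lipid list 13 of 24, with a median of 0.00. With 1 library left out the medians ran from −0.00011 (female 1) to 0.09 (male 2) in the lysosomal list and in the lipid list from −0.03 (male 3) to 0.07 (male 2). The hexosaminidase subunit Hexa (0.28, SE 0.141) and the glucuronidase Gusb (0.30, SE 0.164) had the smallest p among lysosomal genes, and both also belong to the disease-associated list. Npc1, the cholesterol exporter of late endosomes, lay lower in females (−0.19, SE 0.113), as did the cholesterol efflux pump Abca1 (−0.13, SE 0.159). Mylip, a ubiquitin ligase that degrades lipoprotein receptors, was at 14.4, 15.8 and 16.2 CPM in males and 16.7, 16.7 and 19.3 CPM in females (0.18, SE 0.121), without overlap.

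Complement genes lay higher in females in 17 of 20 cases, with a median of 0.17 and 0 genes higher at an unadjusted p under 0.05. With male 3, female 1, female 2 or male 1 left out, 14 of 20 lay higher and the median was 0.07, 0.08, 0.09 and 0.10. C1qa, a subunit of the initiating C1q complex made by microglia, was at 78.2, 116 and 62.6 CPM in males and 140, 122 and 90.5 CPM in females (0.45, SE 0.26), with male 2 above female 3. The central component C3 differed by 0.60 with a wide interval of −1.17 to 2.37, and C4b, which astrocytes and oligodendrocytes raise near plaques, by 0.20 (SE 0.236). Cd46, a membrane regulator that lets factor I cleave deposited complement, went the other way, at 15.9, 16.2 and 18.2 CPM in males and 10.3, 13.6 and 14.2 CPM in females. Every female lay below every male, as for 2.73% of all genes, and the difference was −0.40 (SE 0.15, unadjusted p = 0.0256).

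Among the 16 glial lists, interferon response genes were the list in which single members most often separated the sexes. Of 44 tested members, 43 lay higher in females, with a median of 0.31 and a range of −0.02 to 1.48. It was 38 of 44 without male 1 (median 0.24) and 38 of 44 without female 1 (median 0.20). At an unadjusted p under 0.05, 9 of the 44 lay higher, where 0.64% of all genes did, and in 11 every female exceeded every male, where 2.76% of all genes did. The list level was −0.39, 0.00 and −0.19 in males and 0.42, 0.17 and 0.00 in females, so that male 2 and female 3 met at the border. Only 1 of the 44, Mx1, passed the filter on low counts through the females alone. It could enter the test only by being higher there, and it is part of both the 9 and the 11.

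The promoters of these genes often carry a motif bound by interferon-regulated transcription factors. The motif was searched as GAAANNGAAA on both strands in the 250 bases before to 50 bases after each start site of RefSeq promoters on GRCm38.p6. It was found in 20 of the 32 tested interferon genes with an entry (62.5%), against 3.99% of 27025 genes with an entry (3.44% of 32851 promoters), and in 1 of 33 disease-associated microglia genes (3.03%). A match is a match of letters, not a measured binding site. The following upstream stretches, 5′ to 3′ on the strand of the gene with matches in capitals, are shown because their genes lay higher in females and hold 1 to 3 matches.
Isg15: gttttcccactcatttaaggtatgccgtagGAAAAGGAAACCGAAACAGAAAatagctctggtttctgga
Bst2: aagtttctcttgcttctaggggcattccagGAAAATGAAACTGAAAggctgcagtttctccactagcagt
Trim30a: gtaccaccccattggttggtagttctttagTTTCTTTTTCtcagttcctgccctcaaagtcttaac
Oas1a: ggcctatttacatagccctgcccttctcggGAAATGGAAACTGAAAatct
They lie at chr4:156200857-156200926, chr8:71537563-71537632, chr7:104465194-104465259 and chr5:120907526-120907575, all on the minus strand. Oas1a was picked for display after its values were seen. In Isg15, Bst2 and Oas1a the matches overlap each other, whereas in Trim30a there is 1 match on the opposite strand.

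Among effectors, Isg15, a ubiquitin-like protein that is attached to other proteins (ENSMUSG00000035692, GRCm38 chromosome 4, 156199424 to 156200818, minus strand), was at 1.4, 1.5 and 1 CPM in males and 3.55, 2.42 and 2.09 CPM in females. All females lay above all males, and the difference was 1.03 (SE 0.31, unadjusted p = 0.00867). Ifi44, an interferon-induced cytoplasmic protein, was at 1.22, 2.2 and 1.57 CPM in males and 7.62, 2.49 and 3.91 CPM in females. Female 1 stood far above the rest while female 2 exceeded male 2 by little, and the difference was 1.48 (SE 0.428, unadjusted p = 0.0079). Oasl2, a member of the oligoadenylate synthetase family, was at 5.3, 7.52 and 6.89 CPM in males and 13.8, 9.19 and 8.75 CPM in females (0.68, SE 0.221). The antiviral GTPase Mx1, which passed the filter through the females alone, differed by 0.94. The antiviral GTPase Mx2 differed by 0.99, the GTPase Iigp1 by 0.82 (SE 0.286) and the RNA sensor Oas2 by 0.80. Trim30a, a tripartite-motif protein (0.62), and Bst2, which tethers viral particles (0.59), completed the 9 with an unadjusted p under 0.05. Bst2 alone of these overlapped, at 2.91, 5.64 and 3.76 CPM in males and 6.84, 5.48 and 6.27 CPM in females. These genes beyond Ifi44, Isg15 and Iigp1 were named after their values were seen.

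Of the genes in this paragraph, all but Ifit3 were named after their values were seen. The transcription factors Stat2 (0.05, SE 0.107) and Irf9 (0.09, SE 0.111) were near level. Other transcription factors of the list are not reported here, so these values do not describe them all. The deconjugating protease Usp18 (0.67) and Phf11d (0.70) also showed every female above every male. Ifit3, an RNA-binding effector, was at 13.1, 11.8 and 12.7 CPM in males and 18.7, 12.1 and 13.3 CPM in females (0.23, SE 0.174), and Ifit2 was the 1 tested member below 0 (−0.02, SE 0.162).

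Female 1 carried a good part of this pattern. Without it, 5 interferon genes lay higher at an unadjusted p under 0.05 and the median was 0.20, and without female 3 there were 11 with a median of 0.44. With RIN as a covariate 19 lay higher at that level and the median was 0.99, a fit that rests on the small RIN differences within each sex.

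**Figure D3:**
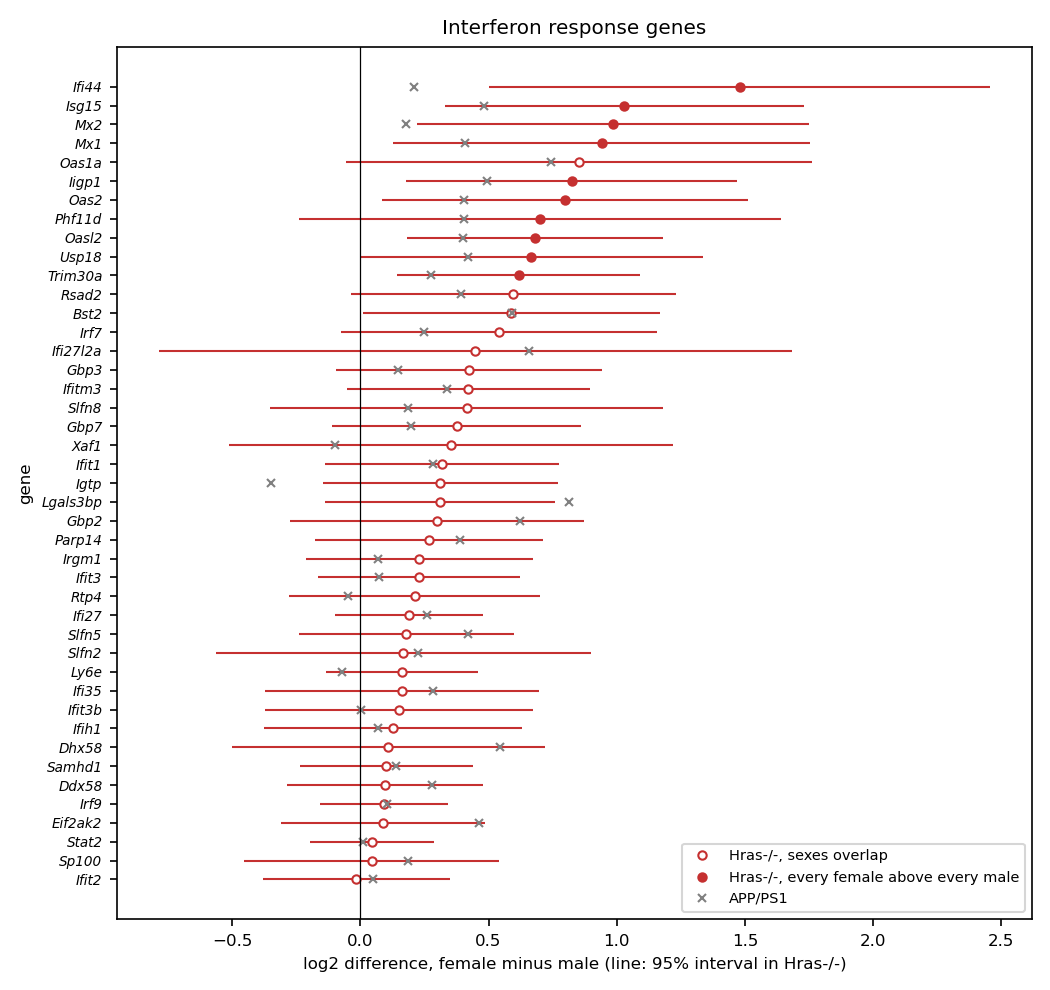
Female minus male log2 difference of the tested interferon response genes described here, with circles and 95% intervals for APP/PS1/Hras-/- mice (filled where every female lies above every male) and crosses for APP/PS1 mice. In the knockout the circles lie right of 0 except that of Ifit2 at −0.02, and Ifi44 at 1.48 is the highest.

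MHC genes lay higher in females, and the class I heavy chains H2-D1 and H2-K1 split the knockout libraries in the same way as a transcript of chromosome 17, where the MHC lies. AC166110.4, that transcript, picked after its values were seen, was at 6.76 and 5.96 CPM in knockout males 1 and 2 and at 7.04 CPM in female 3, but at 0.0627 CPM in male 3 and 0 in females 1 and 2. It lay between 4.87 and 6.85 CPM in all 6 APP/PS1 libraries. H2-D1, a classical class I heavy chain, was at 25.6, 43.7 and 61.6 CPM in males and 106, 77.9 and 29.3 CPM in females. The 3 libraries without AC166110.4 were thus the 3 highest for H2-D1, whatever their sex, and the sex difference of 0.70 had an SE of 0.572. In the APP/PS1 libraries, which all hold the transcript, H2-D1 ran from 31.6 to 77.5 CPM, so high levels also occurred with it present. The class II gene H2-Aa was lowest in male 3, which holds almost none of it. The part of chromosome 17 differences in these values was not tested.

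In the class I list 19 of 22 members lay higher in females (median 0.22), and 7 of the 9 outside chromosome 17 did (median 0.17). B2m, the light chain shared by class I molecules and encoded on another chromosome, was at 77.6, 99.2 and 80.8 CPM in males and 163, 126 and 77.1 CPM in females (0.50, SE 0.267). Nlrc5, the transactivator of class I genes, was at 2.39, 1.99 and 2.76 CPM in males and 5.68, 4.77 and 2.15 CPM in females (0.81, SE 0.354, unadjusted p = 0.0478). Female 3 lay below all males for B2m and inside the male range for Nlrc5. The immunoproteasome subunit Psmb8 differed by 0.46 (SE 0.218). The class I median was 0.11 without female 1 and 0.39 without female 3.

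Class II genes had the highest median of the 16 glial lists at 0.76, with 10 of 11 members higher in females, and also the widest spread. Cd74, the invariant chain, was at 26.2, 12.2 and 6.33 CPM in males and 63.7, 18.6 and 16.4 CPM in females (1.13, SE 0.804). H2-Aa, a class II alpha chain, was at 7.92, 2.63 and 1.69 CPM in males and 21.3, 6.41 and 2.97 CPM in females (1.31, SE 0.947), and H2-Ab1, its beta chain partner, differed by 1.62 (SE 0.839). Female 1 was highest for all 3 genes. H2-DMb1, part of the peptide loading complex, separated the sexes at 1.75, 2.2 and 1.69 CPM in males and 4.78, 2.71 and 2.64 CPM in females (0.83, SE 0.304, unadjusted p = 0.0225). The list median was 0.18 without female 1, 0.99 without female 3, 0.54 with AC166110.4 as a covariate, and 0.32 over the 4 members outside chromosome 17.

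**Figure D4:**
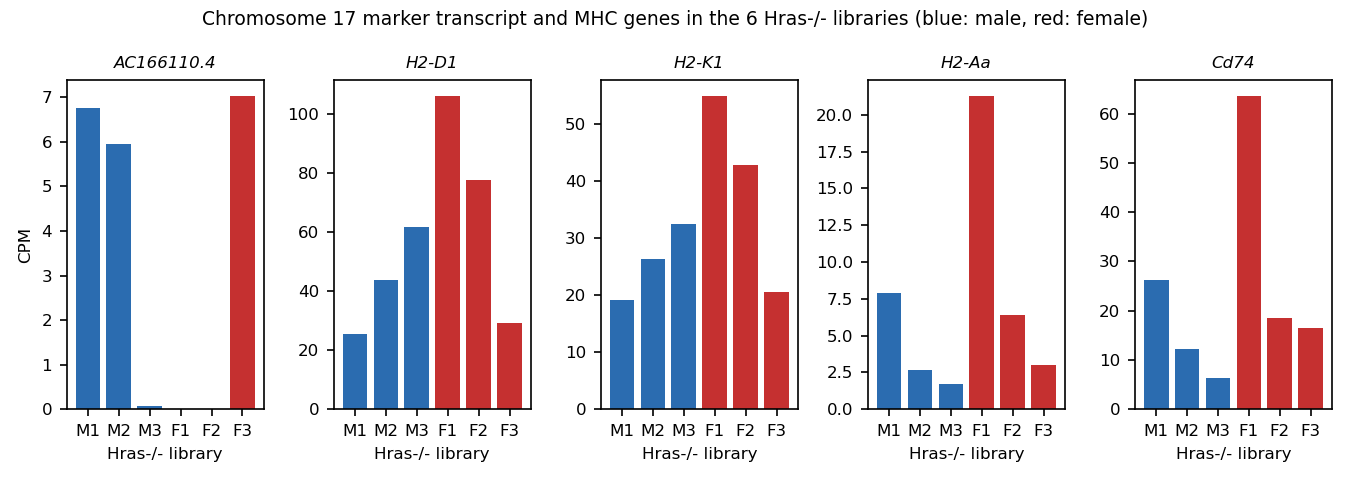
CPM of the chromosome 17 transcript AC166110.4, of H2-D1, H2-K1 and H2-Aa and of Cd74 in the 6 APP/PS1/Hras-/- libraries, males in blue and females in red. M3, F1 and F2, which hold almost no AC166110.4, have the 3 highest bars for H2-D1 and H2-K1, whereas H2-Aa and Cd74 are highest in F1.

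Cytokine and innate receptor genes gave little. In the chemokine and cytokine list 18 of 27 members lay higher in females, with a median of 0.08 (0.01 without male 3 or without female 2, 0.15 without male 2), and Il1b, Il6, Tnf, Ccl2 and Ccl5 were among 7 too low to test. Ccl12, a monocyte chemoattractant, was at 0.582, 0.484 and 0.501 CPM in males and 1.1, 1.71 and 1.16 CPM in females (1.31, SE 0.352, unadjusted p = 0.00461). It passed the filter through the females alone, so it could enter the test only by being higher there. Tgfb2, a growth factor of the TGF-beta family, lay lower in every female, at 11, 12.4 and 11.3 CPM in males and 9.17, 10.6 and 8.53 CPM in females (−0.30, SE 0.142). The alarmin Il33 differed by −0.29 (SE 0.286).

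In the Toll-like receptor and inflammasome list 18 of 21 members lay higher in females, with a median of 0.07 (0.04 without female 2, 0.23 without male 2). Pycard, the adaptor of inflammasomes, was at 3.61, 4.03 and 3.26 CPM in males and 6.58, 5.27 and 4.02 CPM in females (0.53, SE 0.233, unadjusted p = 0.048), with female 3 just under male 2. The receptor Tlr2 (0.28, SE 0.352) and Ly86, a partner of a Toll-like receptor homologue (0.39, SE 0.245), overlapped between the sexes, as female 3 fell among the males for each.

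Reactive astrocyte genes lay higher in females in 26 of 35 cases, with a median of 0.14. Gfap, the intermediate filament that marks reactive astrocytes, was at 652, 1125 and 519 CPM in males and 1048, 960 and 965 CPM in females (0.37, SE 0.272). The females were close together, while male 2 exceeded all of them. Vim, another intermediate filament (0.30, SE 0.239), and the protease inhibitor Serpina3n (0.33, SE 0.271) had male 2 within or above the females as well. S100a10, a calcium-binding family member, lay lower in females (−0.38, SE 0.189). The list median was 0.24 without male 2 and 0.05 without male 3.

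Genes of astrocyte identity were near level. Of 32, 11 were higher in females, and the median was −0.04. The direction rested on single libraries, with 20 of 32 higher without male 2 and 19 without female 3 (median 0.04 each), and 3 without female 2 (median −0.13). Aqp4, the water channel of astrocyte endfeet, was at 169, 158 and 100.2 CPM in males and 140, 140 and 129 CPM in females (−0.07, SE 0.181). The glutamate transporter Slc1a2 (−0.15, SE 0.14), the GABA transporter Slc6a11 (−0.13, SE 0.0858) and the coagulation factor receptor F3 (−0.18, SE 0.125) also overlapped.

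In the oligodendrocyte lineage, the direction for myelin genes rested on single libraries. Of the myelin genes 8 of 27 lay higher in females (median −0.07), with the list level at −0.52, 0.38 and 0.24 in males and 0.08, 0.34 and −0.40 in females. Male 1 and female 3 were low and the sexes overlapped fully. Without male 2 or without female 3, 22 of 27 lay higher (median 0.11), without male 3 it was 16 (median 0.03), and without male 1 or without female 2 it was 1 (medians −0.28 and −0.26). Mobp, a myelin structural protein, was at 431, 995 and 827 CPM in males and 700, 1189 and 547 CPM in females (0.11, SE 0.412), and the adhesion protein Mag (−0.10, SE 0.295) and the lineage factor Sox10 (−0.15, SE 0.132) likewise overlapped. Cryab, a small heat shock protein, differed by 0.17 (SE 0.136).

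Genes that oligodendrocytes raise near plaques lay higher in females in 13 of 17 cases, with a median of 0.14. Cdkn1a, a cell cycle inhibitor, was at 15.7, 20.9 and 13.3 CPM in males and 32.6, 16.8 and 21.8 CPM in females (0.51, SE 0.269). The median was 0.05 without male 3, 0.07 without male 1 and 0.31 without male 2. This list shares H2-D1 and B2m with the class I list and C4b and Serpina3n with the astrocyte and complement lists, so it is no separate measurement of them.

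Oligodendrocyte precursor genes lay higher in females in 6 of 22 cases, with a median of −0.13, the lowest of the 16 glial lists. Without male 1 the median was −0.04 with 9 of 22 higher, and without female 2 it was −0.08. Sox6, a transcription factor that holds precursors undifferentiated, was at 32.1, 32 and 31.8 CPM in males and 27.4, 27.1 and 24.4 CPM in females. The males were almost identical and every female lay below them, for a difference of −0.28 (SE 0.094, unadjusted p = 0.0141). Pdgfra, the growth factor receptor that defines precursors, was at 79.7, 69.1 and 53.6 CPM in males and 51.6, 59.2 and 55.2 CPM in females (−0.29, SE 0.14), with male 3 among the females. Cspg4, a surface proteoglycan of precursors, differed by −0.24 (SE 0.128), and Xylt1, which starts proteoglycan side chains, by −0.13 (SE 0.0929).

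Markers of other cells and regions were unevenly spread over the 6 libraries. Choroid plexus markers summed to 28.6, 581 and 370.1 CPM in males and 617, 74.4 and 14.8 CPM in females, and 0 of 14 tested members had a positive difference (median −0.67). Ependymal markers summed to 25.3 to 30.1 CPM in males and 23.3 to 24.8 CPM in females. For 2 of the 8 tested every female lay below every male, as for 2.73% of all genes. At an unadjusted p under 0.05, 2 of the 8 lay lower in females, as did 0.903% of all genes. Striatal markers summed to 476 to 1164 CPM in males and 526 to 794 CPM in females, and 2 of 15 had a positive difference. Border-associated macrophage markers, which share genes with microglia, summed to 31.3 to 49.6 CPM in males and 37.5 to 50.6 CPM in females, and blood cell markers to 37.8 to 81.1 and 45.5 to 72.3 CPM. No marker of these lists was at 0 in all 6 libraries. Immediate early genes, induced by firing neurons, lay higher in females in 21 of 24 cases (median 0.28), with 0 at an unadjusted p under 0.05. Female 1, highest for interferon and class II genes, also had the highest choroid plexus sum of the 6, and the part of other tissue in the glial values was not tested.

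The same contrast in APP/PS1 mice with Hras, on the same 14837 genes, gave larger median differences in most glial lists. RIN also separated the sexes there, but in the opposite direction, at 8.53 ± 0.058 in females and 8.1 ± 0.26 in males with every female above every male (SD, n = 3 each, exact permutation p = 0.1). There too edgeR called 0 genes (0%), but 1913 lay at an unadjusted p under 0.05 (12.9%), 1051 of them higher (7.08%) and 862 lower (5.81%) in females. Over all genes 50.5% had a positive difference, and every female lay below every male in 9.64%. The 1913 became 1080 without female 2, 1264 without female 1 and 2705 without female 3. DESeq2 called 132 and limma-voom 0. Of the 405 glial genes 157 lay higher at that level with a median of 0.25, and in 161 every APP/PS1 female exceeded every male, as 10.8% of all genes did. In the disease-associated list this held for 33 of 42 genes, against 2 in the knockout, where it held for only 2.76% of all genes. The list medians were 0.57 and 0.25. In the interferon list it held for 8 of 44 against 11 in the knockout, and the medians were 0.27 and 0.31.

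Gene by gene, the contrasts with and without Hras use different mice. Across the 42 disease-associated genes, which share libraries and are not independent, these sex differences had a Pearson correlation of 0.807 and the same sign in 90.5% of cases. Across the 44 interferon genes it was 0.338 with 88.6% of the same sign. Most members of both lists were positive in each contrast, so most signs had to match. In the knockout and in APP/PS1 mice, 37 and 39 of the 42 were positive, and 43 and 40 of the 44. The shares of the same sign do not by themselves show a match gene by gene. Across all 405 glial genes the correlation was 0.443 with 69.4% of the same sign, and across all 14837 genes it was −0.114 with 45.1%. Itgax differed by 1.34 in APP/PS1 and 1.02 in the knockout, Trem2 by 0.82 and 0.53, Tyrobp by 1.11 and 0.43, and Gfap by 0.68 and 0.37.

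**Figure D5:**
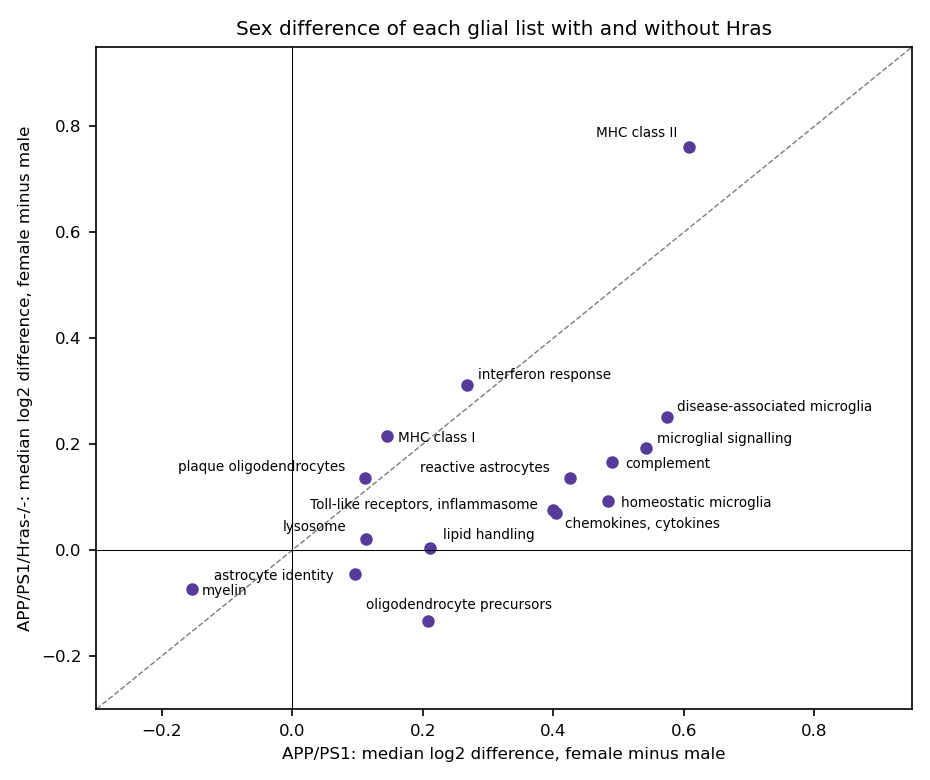
Median female minus male log2 difference of each glial list in APP/PS1 mice (horizontal axis) and in APP/PS1/Hras-/- mice (vertical axis), with the line of equality dashed. The disease-associated microglia list lies below the line at 0.57 and 0.25, the interferon list above it at 0.27 and 0.31, and the oligodendrocyte precursor list at 0.21 and −0.13.

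Whether the sex difference itself depended on Hras was tested over all 12 libraries as the difference between the contrasts, which uses the knockout libraries again. EdgeR called 0 genes (0%), with the lowest adjusted p at 0.679, and 1041 genes lay at an unadjusted p under 0.05. This count was 574 without APP/PS1 female 2 and 783 to 1497 without any other 1 of the 12 libraries. RIN moved with this comparison, being lower in knockout females and higher in APP/PS1 females than in the males. With RIN as a covariate 0 were called and 1441 lay at that level. Among the 405 glial genes 40 were at that level with a smaller female-minus-male difference in the knockout and 3 with a larger one, where 4.28% and 2.74% of all genes were. The estimate was below 0 for 282 glial genes, against 52.1% of all genes. By list, 8 of 22 precursor genes, 8 of 25 homeostatic microglia genes and 3 of 42 disease-associated genes lay at that level below 0.

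The 4 glial genes with the smallest p for this difference included 3 from the precursor list. Pdgfra stood at 47.2, 52.8 and 49.2 CPM in APP/PS1 males and 71.6, 84.6 and 66.2 CPM in APP/PS1 females, without overlap and in the order opposite to its knockout means of 67.4 ± 13.1 in males and 55.3 ± 3.81 CPM in females (SD, n = 3 each). The difference between the contrasts was −0.86 (SE 0.185, unadjusted p = 0.000462, adjusted p = 0.679). It was −0.42 for Xylt1 (SE 0.11) and −0.63 for Cspg4 (SE 0.167), both with every APP/PS1 female above every APP/PS1 male. Cxcr4, a chemokine receptor, had −1.53 (SE 0.425) at levels near 1 CPM. Markers of other tissue moved with this comparison. Choroid plexus markers summed to 3387 CPM in APP/PS1 female 2 and to between 40.8 and 210.4 CPM in the other APP/PS1 libraries. The difference between the contrasts was below 0 for 14 of 14 choroid plexus, 8 of 8 ependymal (6 at an unadjusted p under 0.05), 15 of 15 leptomeningeal and 7 of 7 border-associated macrophage markers, and above 0 for 13 of 15 excitatory neuron markers. In APP/PS1 mice alone, 10 of 15 leptomeningeal and 7 of 7 border-associated macrophage markers lay higher in females at an unadjusted p under 0.05, while 13 of 15 excitatory neuron markers lay lower in value. Their part in the glial values was not tested.

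Outside the glial lists, the smallest p values of the knockout contrast belonged to genes of low level or of no glial role known here. With a mean of at least 1 CPM, the 3 higher in females were Prss16, a serine protease of the thymus, at 0.582, 0.86 and 0.564 CPM in males and 1.68, 1.35 and 1.6 CPM in females (1.19), Lyzl4, a lysozyme-like gene (1.24), and Gm13577 (1.25). The 3 lower were Adamtsl1, an extracellular matrix protein, at 11.6, 12.2 and 14.5 CPM in males and 7.62, 8.83 and 8.25 CPM in females (−0.64), Gm10254 (−1.81) and Gm42664 (−1.21). None overlapped between the sexes, and all 6 had an adjusted p of 0.9999. Prss16 passed the filter on low counts through the females alone and Gm10254 through the males alone. Each could thus enter the test only by being higher in that sex. Of all 14837 tested genes, 9 passed through the females alone and 9 through the males alone.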

How the data were processed

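Poly(A)-selected RNA of frontal cortex was sequenced, and the authors deposited 1 table of raw counts per gene for 12 libraries. Per the submitters' processing notes, reads were trimmed or checked with Trimmomatic 0.33 and FastQC 0.11.7, aligned with HISAT2 2.1.0 and counted with featureCounts. The library kit was stranded per the labels, while strand setting, annotation release and the handling of multi-mapped reads are unknown here, so overlapping or near-identical genes are uncertain. Gene symbols and positions came from GENCODE M21 on GRCm38, and 37 identifiers had no match (0.00986% of counts).

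Libraries were scaled by TMM factors and tested in R 4.3.3 with edgeR 4.0.16 (robust quasi-likelihood, threshold 0.05), on genes with at least 1 CPM in 3 libraries. Levels are CPM with TMM factors, and list levels used a prior count of 2. DESeq2 1.42.0 and limma 3.58.1 were alternatives, as were other scalings, filters, RIN and each library left out. The test was checked on simulated data.

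Named genes were 35 chosen glial genes (34 tested), the 2 with the smallest p in each glial list, 4 for the difference between genotypes and 3 in each direction over all genes. The text marks genes named outside this rule, and some genes of the lists are not reported here by name. The genes, lists and tests were chosen with earlier results of these data known.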

Additional observations from a re-analysis of the deposited data

How the results depend on the processing

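No paired analysis was possible because the replicate numbers follow accession order and pair no mice. In the knockout contrast 0 genes, and 0 glial genes, were called with any 1 of the 6 libraries left out and under 11 of 12 other settings. The exception was the test with sex chromosome genes kept, which called 7 genes and no glial one. In APP/PS1 mice the count of 0 called genes became 132 with DESeq2, 129 with no filter on low counts, 2 at a threshold of 0.1, 10 with sex chromosome genes kept, and 0 to 14 with 1 library left out, the highest without APP/PS1 female 3. It was 4 without male 2 and 1 without male 3. The 9 interferon genes at an unadjusted p under 0.05 became 14 with no filter and 19 with RIN as a covariate, and 5 to 11 with 1 library left out.

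With RIN as a covariate 7 named genes changed sign, namely Lpl (−0.029), Il33 (0.84), Abca1 (0.44), Slc1a2 (0.13), Mag (1.03), Npc1 (0.069) and Sox10 (0.38). With 1 library left out, the ranges that crossed 0 were −0.085 to 0.13 for Apoe, −0.024 to 0.26 for Csf1r, −0.033 to 0.21 for Cx3cr1, −0.26 to 0.019 for Abca1, −0.26 to 0.076 for Aqp4, −0.27 to 0.36 for Mobp and −0.35 to 0.075 for Mag. The cause was not tested. RIN as a covariate also moved the medians of 11 of the 16 glial lists, that of the myelin list to 1.09. Moved here means a shift of at least the SD of the list level within sex, pooled over the sexes. The other lists shifted by less than that, reactive astrocyte genes from 0.14 to 0.33 and precursor genes from −0.13 to −0.15 among them. Other scalings and a fit over all 12 libraries reversed no named gene. Counts near 1 CPM rest on few reads. With 3 mice per sex 24% of simulated differences of 0.58 were called, a share that may be too high for the real libraries. The chromosome 17 covariate and the counts within the interferon and disease-associated lists were added after seeing the data.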
